A study of Homo sapiens with 3 samples.

Results

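Small nucleolar RNA (snoRNA) genes were examined in RNA sequencing data from 3 lines of HaCaT, an immortalised human keratinocyte cell line. All 3 lines expressed the oncogenic HRas mutant HRasG12V. One line was then transduced with the S264A form of THG-1 (THG-1 S264A), one with wild-type THG-1 (THG-1 WT) and one with an empty vector, and total RNA was taken from cultures in DMEM with fetal bovine serum. THG-1 is the protein of TSC22D4. Each line was represented by 1 library, so there was no spread between replicates, no p-value could be given, and every interval below covers counting error only. The sources used here do not give the promoter behind each transgene, whether a line was a pool or a clone, or whether poly(A) selection or rRNA depletion was used.

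The snoRNA genes were the rows of the deposited table whose symbol begins with SNORA or SNORD followed by a digit, and the members described here were those at 1 RPKM or more (reads scaled by gene length and by library depth) in at least 1 of the 3 libraries. Of 57773 rows in the table, 805 had such a symbol, and 9 of these 805 reached 1 RPKM. These 9 rows, 5 of the H/ACA class and 4 of the C/D class, were chosen by their measured RPKM, so that their levels are a description. The nearest row inside the limit was SNORA40_2, at 0.589 RPKM in THG-1 S264A, 0 RPKM in THG-1 WT and 1.03 RPKM in the empty-vector line. The nearest outside it were SNORA26_2, whose highest level was 0.885 RPKM with empty vector, and SNORD3C, whose highest was 0.811 RPKM in THG-1 WT.

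Small nucleolar RNAs guide chemical modification of ribosomal RNA in the nucleolus. C/D RNAs pair with the site to be modified and position fibrillarin, which adds a methyl group to the ribose, while H/ACA RNAs position the pseudouridine synthase dyskerin. A few, among them the C/D RNA U3 that the SNORD3 genes encode, are needed instead for cleavage of the ribosomal RNA precursor. Most human snoRNAs are cut out of introns of longer host genes, whereas U3 genes have promoters of their own.

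The 4 C/D members were all copies of the U3 gene, and their sequences are shown because near-identity limits what each row can say on its own. The sequences are the mature U3 transcripts of GENCODE release 29, all of 217 bases and all on chromosome 17 of GRCh38, within the same region. In SNORD3A (chr17:19188016-19188232, plus strand) the capitals mark box C, TGATGA at bases 158 to 163, and box D, CTGA at bases 209 to 212. In the next 3 sequences the capitals mark the bases that differ from SNORD3A: SNORD3B-1 (chr17:19061912-19062128, plus strand), SNORD3C (chr17:19190029-19190245, minus strand) and SNORD3D (chr17:19112420-19112636, minus strand).
SNORD3A: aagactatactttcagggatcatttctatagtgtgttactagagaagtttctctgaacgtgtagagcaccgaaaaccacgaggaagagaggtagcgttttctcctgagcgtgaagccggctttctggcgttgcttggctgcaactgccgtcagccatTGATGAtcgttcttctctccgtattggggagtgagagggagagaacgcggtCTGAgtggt
SNORD3B-1: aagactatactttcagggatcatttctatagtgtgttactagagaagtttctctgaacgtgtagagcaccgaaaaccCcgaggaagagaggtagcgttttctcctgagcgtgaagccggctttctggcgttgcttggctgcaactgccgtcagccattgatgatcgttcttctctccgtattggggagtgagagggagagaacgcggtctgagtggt
SNORD3C: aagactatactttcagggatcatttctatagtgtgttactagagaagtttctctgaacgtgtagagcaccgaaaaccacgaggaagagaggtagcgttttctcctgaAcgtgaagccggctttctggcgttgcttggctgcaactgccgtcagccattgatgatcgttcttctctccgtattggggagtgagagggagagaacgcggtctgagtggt
SNORD3D: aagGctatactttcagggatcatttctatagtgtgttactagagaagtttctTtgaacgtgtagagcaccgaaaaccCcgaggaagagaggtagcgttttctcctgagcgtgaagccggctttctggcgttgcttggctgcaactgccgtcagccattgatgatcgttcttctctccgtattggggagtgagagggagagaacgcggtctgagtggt
With positions counted from 1 at the 5′ end and the SNORD3A base given first, SNORD3B-1 carries A78C, SNORD3C carries G108A, and SNORD3D carries A4G, C53T and A78C. SNORD3B-2 (chr17:19063920-19064136, minus strand) had the same 217 bases as SNORD3B-1, so a read inside the mature RNA cannot tell that pair apart. Identity to SNORD3A was 99.54% for SNORD3B-1, SNORD3B-2 and SNORD3C and 98.62% for SNORD3D. The sources used here do not say how reads that fit several copies were placed. The lengths recovered from the RPKM values were longer than the mature RNA, at 699 bases for SNORD3A, 583 for SNORD3B-1, 688 for SNORD3B-2 and 637 for SNORD3D, so that each level is an average over a longer annotated gene.

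A pair of snoRNAs that also act in ribosomal RNA processing, but are annotated inside other genes, is shown as a contrast of position. Their rows were at 0 RPKM in all 3 libraries. Lying inside another gene does not show that a snoRNA is made from it, and this was not tested. In the annotation SNORD118 overlaps an exon of TMEM107, whereas SNORA73B lies outside the exons of SNHG3. SNORD118 encodes the C/D RNA U8 (GENCODE release 29, GRCh38, chr17:8173454-8173587, minus strand, 134 bases), and its capitals mark TGATGA and CTGA. SNORA73B encodes the H/ACA RNA U17 (chr1:28508559-28508762, plus strand, 204 bases), and its capitals mark the ACA that lies 3 bases from the 3′ end.
SNORD118: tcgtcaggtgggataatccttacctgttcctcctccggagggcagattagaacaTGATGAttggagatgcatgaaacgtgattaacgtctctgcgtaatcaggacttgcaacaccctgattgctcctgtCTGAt
SNORA73B: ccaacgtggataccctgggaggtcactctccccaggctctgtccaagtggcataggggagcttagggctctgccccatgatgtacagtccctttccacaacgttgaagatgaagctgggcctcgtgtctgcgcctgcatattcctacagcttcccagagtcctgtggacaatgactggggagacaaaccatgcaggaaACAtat
The motifs divided the classes in these sequences as their names say. Among the 218 C/D genes whose transcript could be matched by symbol, TGATGA stood anywhere in the transcript strand of 78.4% and CTGA in the last 20 bases of 96.3%. Among the 52 matched H/ACA genes, ACA stood 3 bases from the 3′ end of 69.2%, and TGATGA was found in 3.85%. A motif that was not found says only that these letters were not in that stretch of the transcript.

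Depth was 14022885 reads in the THG-1 S264A library, 12733479 in the THG-1 WT library and 32055052 in the empty-vector library, as recovered from the steps in the RPKM values. TSC22D4, the transgene's own gene, was at 51.1 RPKM in THG-1 S264A and 64.9 RPKM in THG-1 WT, against 7.98 RPKM with empty vector. All 9 keratinocyte markers on a fixed list, among them KRT5, KRT14 and TP63, were at 17.4 RPKM or more in every library. No gene on the fibroblast, immune and neuron lists reached 1 RPKM. The summed level of the 3 measured endothelial markers was 1.66 RPKM in THG-1 S264A, 0.691 RPKM in THG-1 WT and 0.374 RPKM with empty vector, an order set by VWF (1.51, 0.348 and 0.311 RPKM), while CDH5 was highest in THG-1 WT and KDR had 1 read. That of 4 melanocyte markers was 1.31 RPKM in THG-1 S264A, 2.07 RPKM in THG-1 WT and 1.15 RPKM with empty vector, an order set by MITF (0.829, 1.70 and 0.600 RPKM), while PMEL and MLANA were lowest in THG-1 WT and TYR was at 0. The part of other cells in the snoRNA levels was not tested. In RNA of whole cultures, fewer cells with an RNA and less of that RNA per cell cannot be told apart.

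U3 made up nearly all the snoRNA signal. The 5 SNORD3 rows together held 7461 reads in THG-1 S264A, 11589 in THG-1 WT and 22817 with empty vector, which was 96.6%, 97.8% and 97.4% of all reads on snoRNA rows in these libraries. Outside the U3 copies, C/D rows held 0 reads in THG-1 S264A, 0 in THG-1 WT and 1 with empty vector, the last on SNORD112_41. The 406 H/ACA rows held 259 reads in THG-1 S264A, 255 in THG-1 WT and 597 with empty vector, or 18.5, 20.03 and 18.6 RPM (recovered reads scaled by library depth alone, not by gene length).

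SNORD3B-1 had the highest level of any snoRNA row, at 664 RPKM in THG-1 S264A, 1073 RPKM in THG-1 WT and 910 RPKM with empty vector. SNORD3A followed, at 198 RPKM in THG-1 S264A, 387 RPKM in THG-1 WT and 245 RPKM with empty vector. SNORD3B-2 was at 7.88 RPKM in THG-1 S264A, 16.1 RPKM in THG-1 WT and 12.6 RPKM with empty vector. In all 3 of these copies THG-1 WT was highest and THG-1 S264A lowest. SNORD3D showed the same order at a lower level, with 2.35 RPKM in THG-1 S264A, 4.07 RPKM in THG-1 WT and 2.69 RPKM with empty vector. SNORD3C, the copy under the limit, had 2 reads in THG-1 S264A, 6 in THG-1 WT and 6 with empty vector. The 4 C/D members thus ran from 2.35 to 1073 RPKM, although their mature sequences differ from that of SNORD3A in at most 3 bases.

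**Figure D1:**
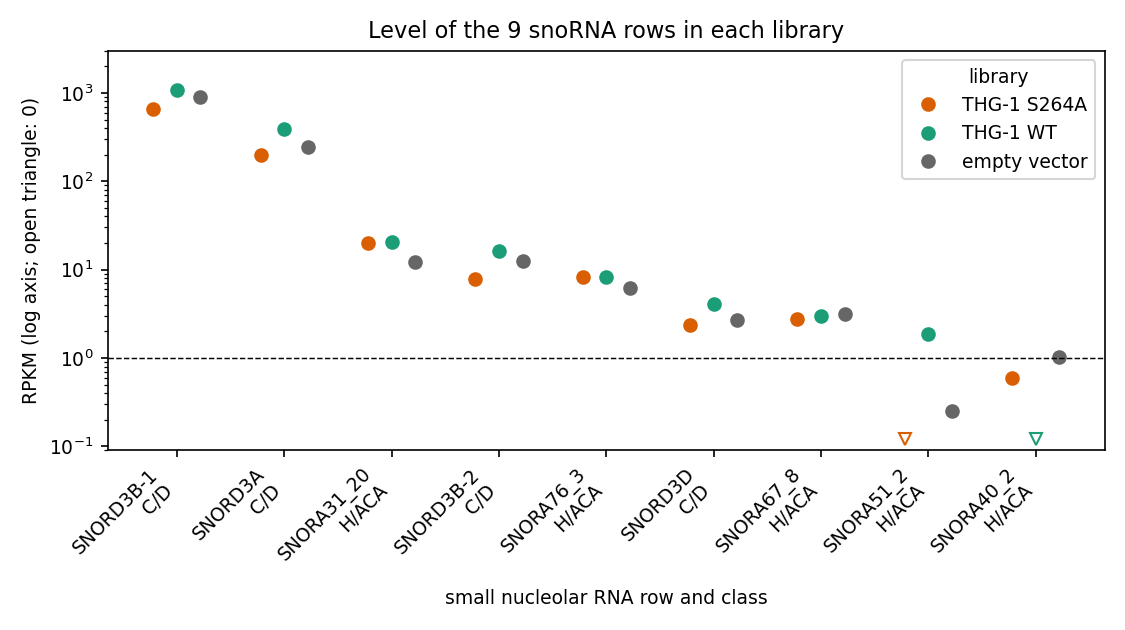
Levels of the 9 snoRNA rows in each library, in RPKM on a log axis, ordered by mean level; the dashed line is the 1 RPKM limit and open triangles mark a level of 0. The SNORD3 copies were highest in THG-1 WT, and SNORD3B-1 and SNORD3A, at 198 to 1073 RPKM, stood above every H/ACA row.

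The H/ACA members lay far below. SNORA31_20, the highest, was at 20.2 RPKM in THG-1 S264A, 20.5 RPKM in THG-1 WT and 12.1 RPKM with empty vector. These levels rested on 38, 35 and 52 reads over a recovered length of 134 bases. Both THG-1 lines stood above the empty-vector line. SNORA76_3 was at 8.21 RPKM in THG-1 S264A, 8.19 RPKM in THG-1 WT and 6.17 RPKM with empty vector, from 32, 29 and 55 reads. SNORA67_8 was nearly level, at 2.77 RPKM in THG-1 S264A, 3.02 RPKM in THG-1 WT and 3.16 RPKM with empty vector. Its 177, 175 and 462 reads were the most of any H/ACA row, but its recovered length of 4554 bases is far beyond that of a snoRNA, and the table gives no coordinates to say what else the row covers. SNORA51_2 had 0 reads in THG-1 S264A, 3 in THG-1 WT and 1 with empty vector, and SNORA40_2 had 1, 0 and 4 reads in the same libraries. This last pair passed the 1 RPKM limit on 3 and 4 reads, since 1 read on so short a gene is worth a large part of 1 RPKM.

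Each H/ACA member carries a copy number after its family name, and the table does not place these numbered copies in the genome. No annotated length was at hand for them, so their reads and recovered lengths are the smallest that fit the RPKM values. Across the table, 515 snoRNA rows carried such a number and 290 symbols stood in 1 row without one. Of the 16 numbered rows above 0 in at least 1 library, 15 were H/ACA. None of the un-numbered H/ACA rows was above 0, and the 5 un-numbered rows above 0 were the U3 copies.

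The comparison of THG-1 WT with empty vector asked what wild-type THG-1 changed. U3 RNA was higher in the THG-1 WT line, at 910 RPM (95% counting interval 894 to 927) for the 5 copies summed, against 712 (703 to 721) with empty vector, a ratio of 1.28 (1.25 to 1.31). The ratio was 1.58 (1.51 to 1.65) for SNORD3A, 1.18 (1.15 to 1.21) for SNORD3B-1 and 1.28 (1.04 to 1.58) for SNORD3B-2. For SNORD3D it was 1.51 with an interval of 0.950 to 2.37. The direction of SNORD3B-1 depended on the scaling, since its ratio was 0.983 when libraries were brought to the same upper quartile and 1 in the authors' quantile-normalised values, while that of SNORD3A was 1.32 and 1.55 under the same settings. The median log2 ratio of all rows was itself moved to -0.22 by upper-quartile scaling and to -0.16 by scaling to the same sum, and in the comparisons below upper-quartile scaling moved it to -0.15 for THG-1 S264A against empty vector and scaling to the same sum to 0.13 for THG-1 S264A against THG-1 WT. SNORA31_20 was 1.69-fold higher (1.07 to 2.65), SNORA76_3 had a ratio of 1.33 (0.816 to 2.12) and SNORA67_8 one of 0.954 (0.797 to 1.14). With upper-quartile scaling the ratio of SNORA31_20 was 1.41, for which no interval was computed.

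By a rule of at least 2-fold on the log2(RPKM + 1) scale, 1 of the 9 members was called higher in THG-1 WT, where 4.53% of the 12012 rows tested were, and 1 lower, where 1.56% were. The higher one was SNORA51_2 with 3 reads in THG-1 WT against 1 with empty vector, and the lower one SNORA40_2 with 0 against 4 reads. Among other genes of 1 exon and under 300 bases, 16.4% of 116 were called higher and 16.4% lower by the same rule. When the 95% counting interval had to lie beyond 2-fold, 0 of 9 members were called in either direction, against 4.92% of all rows higher and 1.81% lower. Of the 9 members, 4 had an interval wholly above 1 and 0 one wholly below it, where 32.8% of all rows had one above and 32.4% one below. The median log2 ratio was 0.36 over the 9 members and -0.01 over all rows tested.

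The comparison of THG-1 S264A with empty vector asked the same of the mutant. Here U3 was lower, at 532 RPM (520 to 544) in THG-1 S264A against 712 (703 to 721) with empty vector, a ratio of 0.747 (0.728 to 0.767). SNORD3B-1 had a ratio of 0.730 (0.708 to 0.752), SNORD3A of 0.808 (0.766 to 0.851) and SNORD3B-2 of 0.627 (0.480 to 0.811). SNORD3D, with 0.873, had an interval that reached across 1 (0.501 to 1.47). All 4 ratios stayed below 1 under each scaling tried. In the H/ACA class SNORA31_20 was 1.67-fold higher (1.07 to 2.59), while SNORA76_3 at 1.33 (0.832 to 2.09) and SNORA67_8 at 0.876 (0.732 to 1.04) did not differ beyond counting error. With upper-quartile scaling SNORA31_20 had a ratio of 1.45, again without a computed interval. Of 8 members tested 0 were called at least 2-fold higher or lower, where 3.01% of 12032 rows were called higher and 0.823% lower, and where 6.54% and 9.35% of the other short genes of 1 exon were. With intervals beyond 2-fold the members called were again 0, against 3.47% of all rows higher and 0.989% lower. An interval wholly above 1 was found for 1 of the 8 members and one wholly below 1 for 3, where 30.5% and 26.6% of all rows had them. The median log2 ratio was -0.22 over the 8 members and 0.02 over all rows tested.

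The comparison of THG-1 S264A with THG-1 WT asked how the mutant differed from the wild type, and it held the largest differences of the U3 copies. Summed U3 was 532 RPM (520 to 544) in THG-1 S264A against 910 (894 to 927) in THG-1 WT, a ratio of 0.585 (0.568 to 0.602). SNORD3B-2 had a ratio of 0.489 (0.365 to 0.651), SNORD3A of 0.511 (0.483 to 0.540) and SNORD3B-1 of 0.618 (0.597 to 0.640). That of SNORD3D was 0.578, with an interval of 0.318 to 1.03. SNORD3A and SNORD3B-2, at -0.97 and -0.95 on the log2(RPKM + 1) scale, fell just short of the 2-fold rule. The U3 copies were lower in THG-1 S264A under each scaling tried, with ratios of SNORD3A from 0.511 to 0.553 and of SNORD3B-1 from 0.618 to 0.797.

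The H/ACA members with at least 20 reads stood closer to 1. SNORA31_20 had a ratio of 0.986 (0.606 to 1.61), SNORA76_3 of 1.00 (0.587 to 1.72) and SNORA67_8 of 0.918 (0.741 to 1.14). The intervals of SNORA31_20 and SNORA76_3 are wide enough to hold 0.618, the ratio of SNORD3B-1. That of SNORA67_8 is not, but its recovered length of 4554 bases is far beyond that of a snoRNA, so what it measures is not known. By the 2-fold rule 0 of 8 members were called higher in THG-1 S264A, where 1.57% of 12090 rows were, and 1 lower, where 2.23% were. The member called lower was SNORA51_2, with 0 reads in THG-1 S264A against 3 in THG-1 WT, a difference that was not detectable at this depth. Among the other short genes of 1 exon 14% were called higher and 21.9% lower. With intervals beyond 2-fold 0 members were called, against 1.63% of all rows higher and 2.01% lower. Of the 8 members 0 had an interval wholly above 1 and 3 one wholly below it, where 28.6% and 26.3% of all rows had them. The median log2 ratio was -0.64 over the 8 members and 0.02 over all rows tested.

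**Figure D2:**
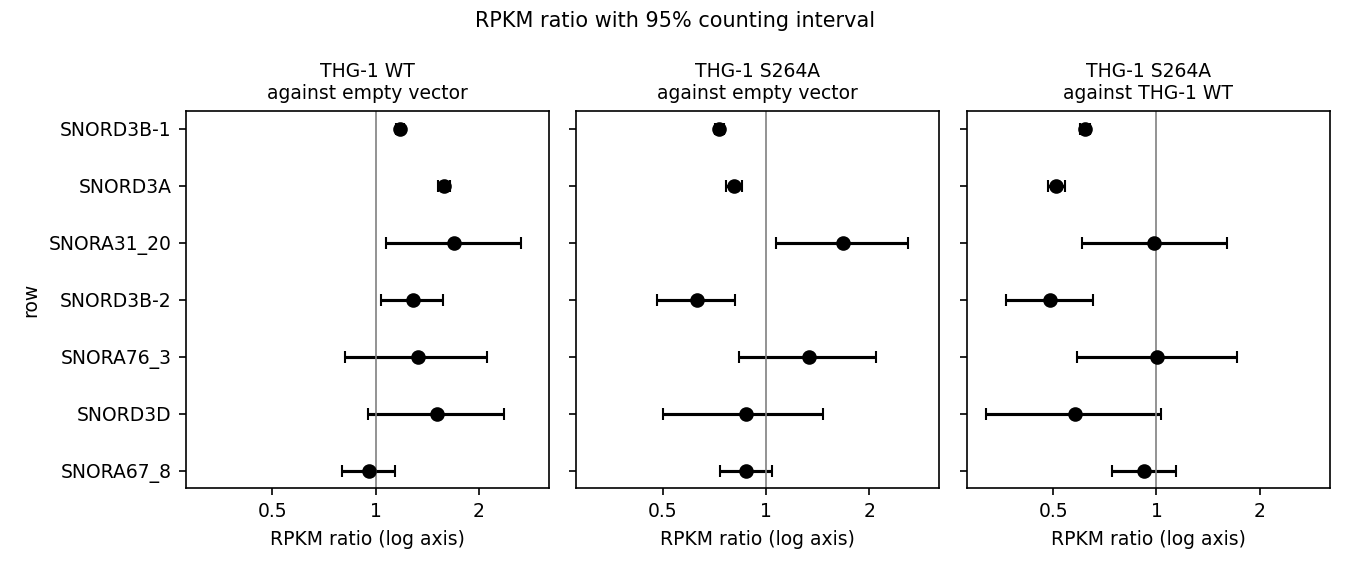
RPKM ratios of the 7 members with at least 20 reads in each of the 3 comparisons, on a log axis, with 95% counting intervals as bars and a line at 1. In THG-1 S264A against THG-1 WT the SNORD3 copies lie between 0.489 and 0.618 and the H/ACA rows between 0.918 and 1.00. The row at 0.918 is SNORA67_8, whose recovered length of 4554 bases is far beyond that of a snoRNA.

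The summed RPKM of all 399 C/D rows was 872 in THG-1 S264A, 1481 in THG-1 WT and 1170 with empty vector, and that of all 406 H/ACA rows was 34.2, 35.7 and 25.9 RPKM in the same libraries. The C/D sum of THG-1 S264A was 0.745 times that of the empty-vector line (0.726 to 0.765) and 0.589 times that of THG-1 WT (0.572 to 0.606). The H/ACA sum of THG-1 S264A was 1.32 times that of the empty-vector line (1.01 to 1.74) and 0.957 times that of THG-1 WT (0.701 to 1.31). For THG-1 WT against empty vector the ratio was 1.27 (1.24 to 1.29) for C/D rows and 1.38 (1.05 to 1.82) for H/ACA rows. The H/ACA ratio stood above the C/D ratio in both comparisons of THG-1 S264A, and which of these held the wider gap depended on SNORA31_20 and on the weighting by length. The H/ACA sum rested on SNORA31_20: without that row its ratio for THG-1 S264A against empty vector was 1.01, and as a share of reads instead of RPKM it was 0.992, against C/D ratios of 0.745 and 0.747. For THG-1 S264A against THG-1 WT the same settings gave 0.919 and 0.922 for H/ACA rows, against C/D ratios of 0.589 and 0.585. For THG-1 WT against empty vector they gave 1.10 and 1.08 for H/ACA rows, against C/D ratios of 1.27 and 1.28. The share of reads there had an interval of 0.925 to 1.25 for H/ACA rows. Which class had the higher ratio in that comparison thus depended on the setting. The C/D sum is the sum of the U3 copies in all but 1 read.

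The balance between U3 copies also differed between libraries, a measure that does not depend on how a library is scaled. SNORD3A took 25.9% of U3 reads (exact 95% interval 25.0 to 27.0) in THG-1 S264A, 29.7% (28.9 to 30.5) in THG-1 WT and 24.0% (23.5 to 24.6) with empty vector. SNORD3B-1 took 72.7% in THG-1 S264A, 68.7% in THG-1 WT and 74.5% with empty vector. SNORD3B-2 and SNORD3D stayed at 1.02% to 1.22% and 0.241% to 0.285% of U3 reads. The intervals of SNORD3A did not overlap between any of the 3 libraries, but reads are not independent molecules, and how reads were divided among copies that differ by 1 base is not known here.

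**Figure D3:**
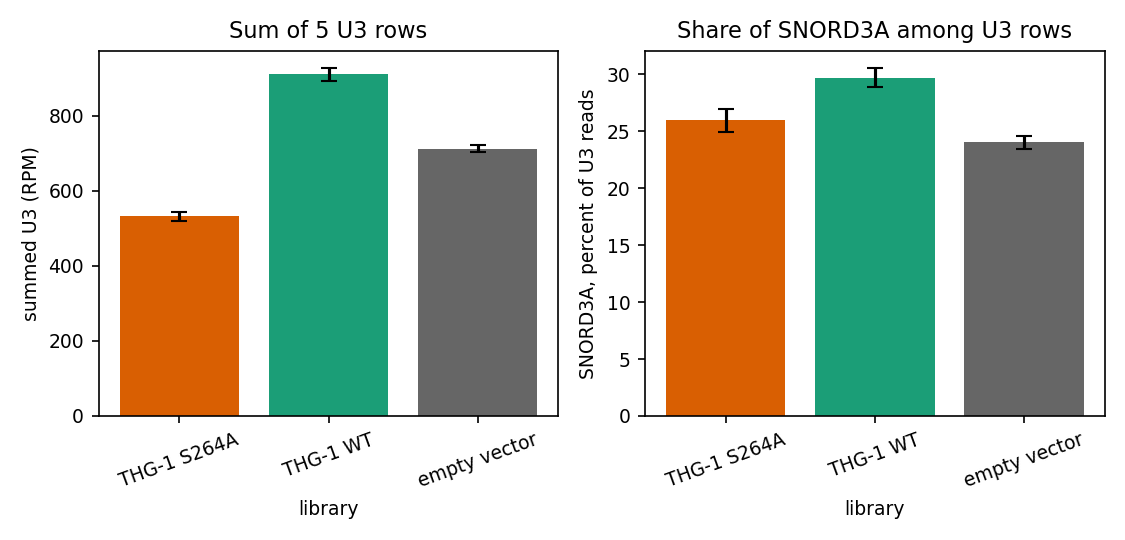
Left, summed level of the 5 U3 rows in each library, in RPM; right, the share of SNORD3A among these reads, with exact 95% counting intervals as bars. Summed U3 was 532, 910 and 712 RPM and the SNORD3A share 25.9%, 29.7% and 24.0% in THG-1 S264A, THG-1 WT and empty vector.

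Among other short RNAs, 8 spliceosomal RNA genes showed differences in the direction of the U3 copies. They were the RNU genes with at least 20 reads, without symbols that end in P (pseudogenes), a set chosen after values had been seen. Of all RNU rows, pseudogenes among them, 39 reached 1 RPKM, and the pseudogene rows were not compared. All 8 had a ratio below 1 in THG-1 S264A against THG-1 WT, from 0.493 to 0.892 with a median of 0.619. Of their intervals 5 of 8 were below 1, against 26.3% of all rows tested. RNU4-1, which encodes the spliceosomal U4 RNA, was at 310 RPKM in THG-1 S264A, 512 RPKM in THG-1 WT and 384 RPKM with empty vector, the same order as the U3 copies. In THG-1 WT against empty vector all 8 ratios were above 1 (1.10 to 1.69), with 6 of 8 intervals above 1 against 32.8% of all rows tested, although that of RNU4-2 was 0.915 with upper-quartile scaling and 0.983 with libraries brought to the same sum. In THG-1 S264A against empty vector 6 of the 8 were below 1 and 2 above, with 4 of 8 intervals below 1 against 26.6% of all rows tested. The 2 above, RNU11 and RNU5B-1, were also below 1 with upper-quartile scaling, at 0.992 and 0.975.

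In the values as deposited, none of 6 other short RNAs with at least 20 reads (RN7SK, TERC, RMRP, SCARNA2, RPPH1 and RN7SL2) was both highest in THG-1 WT and lowest in THG-1 S264A. For RN7SL2 this depended on the scaling. It was highest in THG-1 WT, and its log2 ratio of THG-1 S264A to empty vector was 0.08. Upper-quartile scaling shifts that comparison by -0.20, which would give RN7SL2 the order of the U3 copies. The vault RNA gene VTRNA1-1 had that order and was called lower in THG-1 S264A than in THG-1 WT, at 0, 1.59 and 0.945 RPKM in THG-1 S264A, THG-1 WT and empty vector, on 0, 2 and 3 reads. RN7SK, which restrains transcription elongation, was at 21501 RPKM in THG-1 S264A, 16386 RPKM in THG-1 WT and 15558 RPKM with empty vector. TERC, the telomerase RNA and itself an H/ACA RNA, was at 268 RPKM in THG-1 S264A, 190 RPKM in THG-1 WT and 188 RPKM with empty vector. RN7SK, TERC and SCARNA2 were highest in THG-1 S264A, where U3 was lowest. RMRP, a ribonuclease RNA that acts on the ribosomal RNA precursor, was at 14880, 17178 and 18197 RPKM in the same libraries, and SCARNA2, a guide for spliceosomal RNA in Cajal bodies, at 389, 362 and 316 RPKM. The part of library depth, or of a difference between libraries in short RNAs at large, in the U3 result was not tested.

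**Figure D4:**
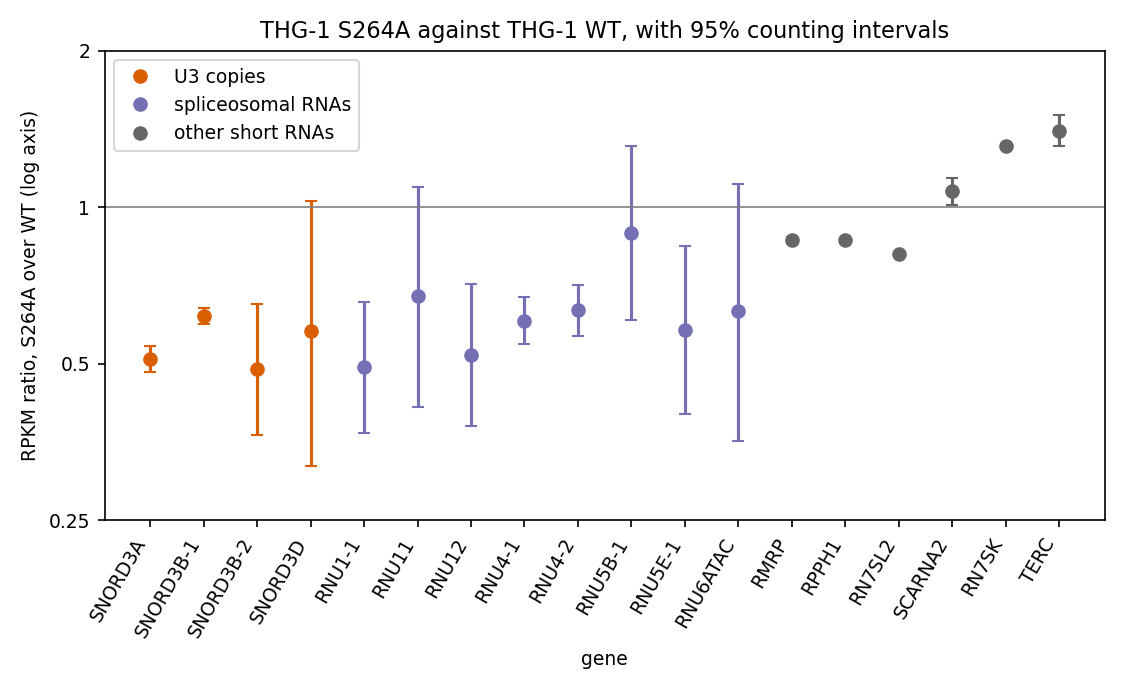
RPKM ratios of THG-1 S264A over THG-1 WT on a log axis, with 95% counting intervals as bars, for 4 U3 copies, 8 spliceosomal RNA genes (pseudogenes left out) and 6 other short RNAs. The U3 copies and the spliceosomal RNAs lie between 0.489 and 0.892, and of the other 6 RN7SL2 (0.814), RPPH1 (0.865) and RMRP (0.866) also lie below 1, while SCARNA2, RN7SK and TERC lie above it.

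The larger part of the snoRNA rows, 784 of 805, was at 0 in all 3 libraries. In the H/ACA class 15 of 406 rows (3.69%) were above 0 in at least 1 library, and in the C/D class 6 of 399 (1.5%). Among other families of short RNA the share ran from 2.72% of 514 rows of 5S RNA, through 5.36% of 1884 spliceosomal and 5.51% of 1379 microRNA rows, to 7.41% of 54 Cajal body RNA, 10.1% of 848 RN7SL and 66.7% of 6 vault RNA rows. Per library 14 snoRNA rows were above 0 in THG-1 S264A, 13 in THG-1 WT and 20 in the deeper empty-vector library, and with reads thinned to the depth of the THG-1 WT library the expected numbers were 13.5, 13 and 14.5. Short length limits these counts. At the median annotated C/D length of 82 bases, 1 read is worth 0.870 RPKM in THG-1 S264A, 0.958 RPKM in THG-1 WT and 0.380 RPKM with empty vector, and a count of 0 allows a level of up to 3 reads, or 2.61, 2.87 and 1.14 RPKM in these libraries. At the median H/ACA length of 135 bases the same limits are 1.58, 1.75 and 0.693 RPKM.

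The rows at 0 included the well-known members of both classes. Of 14 listed snoRNAs with a part in ribosomal RNA processing that had a row, 5 were above 0, all of them U3 copies, and 9 were at 0, among them SNORD118, SNORA73B, SNORD22 and the SNORD14 genes of U14 RNA. The 3 measured C/D genes of the RPL13A introns (SNORD32A, SNORD34 and SNORD35A) and the 2 measured of GAS5 (SNORD44 and SNORD79) were at 0. All 120 rows of the imprinted SNORD113 to SNORD116 clusters were at 0.

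Position in the genome set 4 of the 5 U3 genes apart from the other snoRNA genes, all but SNORD3D. Of the 290 un-numbered symbols, 270 could be matched to GENCODE release 29, and 263 of these lie inside a longer gene on the same strand, 71 of them overlapping an annotated exon of it. Of the 263, only SNORD3D was above 0 (0.38%). Its recovered length of 637 bases was that of the exons of AC007952.4, the longer gene that holds it, whose own row was at 0. The 4 snoRNA genes outside longer genes were SNORD3A, SNORD3B-1, SNORD3B-2 and SNORD3C, and all 4 were above 0. These 4 are near-identical copies of 1 family, annotated at 581 to 791 bases. The median annotated length was 82 bases for C/D and 135 bases for H/ACA genes. Position, family and annotated length therefore cannot be told apart for the snoRNA genes. Another 3, SNORA70G, SNORD13 and SNORD32B, lie inside a gene of the opposite strand only, and all 3 were at 0. SNORD13 is also among the 9 listed snoRNAs of ribosomal RNA processing at 0. The same division was examined for other short RNA types after the snoRNA values were known. Inside longer genes of the same strand 2.21% of 996 were above 0, and inside genes of the opposite strand only 0.893% of 672. Outside longer genes the share was 14.8% of 1139. For microRNA genes the shares, in the same order of positions, were 3.11% of 869, 3.05% of 164 and 8.77% of 308. Other short RNA types at 1 RPKM or more included 13 genes inside longer genes of the same strand, RN7SL2, RPPH1 and SCARNA2 among them. Outside longer genes they were 55, among them RN7SK and RNU4-1.

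**Figure D5:**
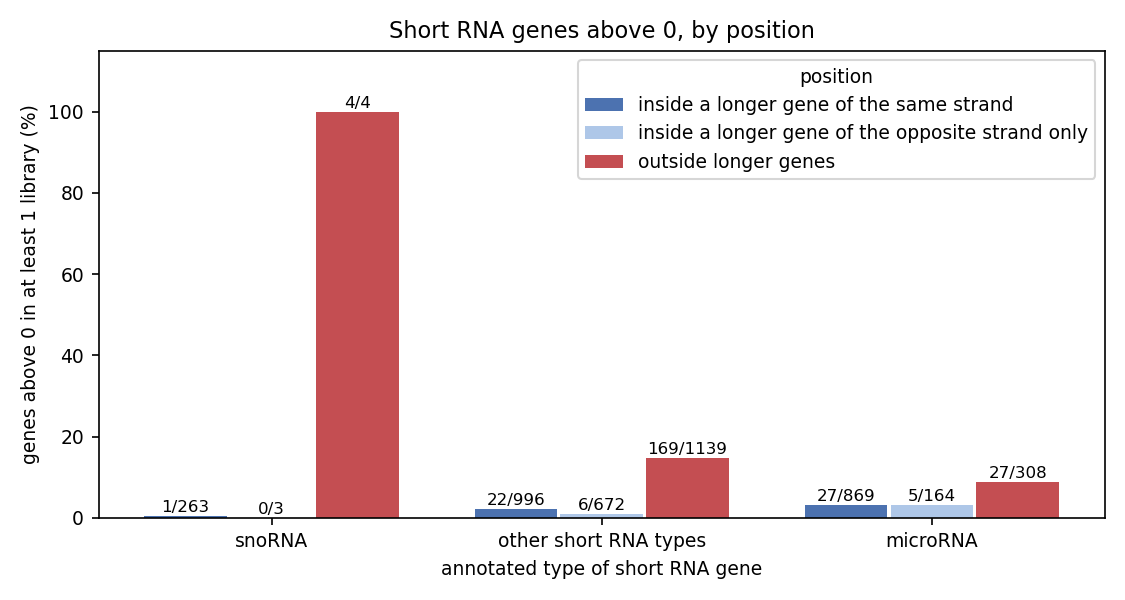
Share of annotated short RNA genes above 0 in at least 1 library, in percent, by type and by position relative to longer genes; the numbers over the bars are genes above 0 over all genes. For snoRNAs 1 of 263 genes inside longer genes of the same strand and 4 of 4 outside them were above 0, and these 4 are all copies of U3.

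The host genes of the rows at 0 were for the most part above 0 themselves. The 256 snoRNAs at 0 with a host in the table lie in 100 different hosts, of which 90 had a mean of at least 1 RPKM over the 3 libraries, 58 of at least 10 RPKM and 18 of at least 100 RPKM. Counted by snoRNA, only 137 of the 256 had a host at 1 RPKM or more, and 95 one at 10 RPKM or more. The matched SNORD115 and SNORD116 copies lie in SNHG14, at 0.158 RPKM in THG-1 S264A, 0.157 in THG-1 WT and 0.291 with empty vector. The matched SNORD114 copies lie in MEG8, which was at 0 in every library. RPL7A, a ribosomal protein gene that holds SNORD24, SNORD36A, SNORD36B and SNORD36C, was at 534 RPKM in THG-1 S264A, 529 RPKM in THG-1 WT and 514 RPKM with empty vector, while all 4 snoRNA rows were at 0. RPL13A was at 265 RPKM in THG-1 S264A, 344 RPKM in THG-1 WT and 316 RPKM with empty vector. SNHG3, the noncoding host of SNORA73B, was at 87.7 RPKM in THG-1 S264A, 111 RPKM in THG-1 WT and 82.9 RPKM with empty vector. A 0 in the snoRNA rows of RPL7A, RPL13A and SNHG3 therefore stood beside a transcribed host. The sources used here do not say whether reads within a host were assigned to the host alone. Of 16 tested noncoding hosts and 20 tested protein-coding hosts on fixed lists, 0 were called at least 2-fold higher or lower in any of the 3 comparisons, where between 0.823% and 4.53% of all rows were called in one direction, so that lists this short are close to that background.

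Among the genes of C/D core proteins, NOP56 passed the 2-fold rule in both comparisons with empty vector. NOP56, a core protein of C/D particles, was at 35.5 RPKM in THG-1 S264A and 43.9 RPKM in THG-1 WT, against 14.9 RPKM with empty vector. It was 2.38-fold higher (2.24 to 2.52) in THG-1 S264A and 2.94-fold higher (2.78 to 3.11) in THG-1 WT than with empty vector, and past the 2-fold rule under each scaling tried. The 3 snoRNA genes matched inside NOP56, SNORD57, SNORD86 and SNORD110, were at 0 in every library. FBL, which encodes fibrillarin, was at 29.5 RPKM in THG-1 S264A, 36.3 RPKM in THG-1 WT and 30.5 RPKM with empty vector. NOP56 was the only called one of the 4 C/D core genes. Of all rows tested against empty vector, 4.53% were called higher in THG-1 WT and 3.01% in THG-1 S264A. For THG-1 S264A against THG-1 WT 0 of these 4 were called, where 1.57% of all rows were called higher and 2.23% lower. The ratio of NOP56 there was 0.808 (0.764 to 0.854).

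None of the 4 H/ACA core genes and none of the 11 assembly factors on the lists was called in any comparison, a count that the same background of at most 4.53% of rows would also give. DKC1, which encodes dyskerin, was at 16.9 RPKM in THG-1 S264A, 21.9 RPKM in THG-1 WT and 18.9 RPKM with empty vector. NHP2, another H/ACA core gene, was at 18.4 RPKM in THG-1 S264A, 35.7 RPKM in THG-1 WT and 30.7 RPKM with empty vector, a ratio of 0.514 (0.453 to 0.583) for THG-1 S264A against THG-1 WT. TCOF1 and NOLC1 encode nucleolar phosphoproteins of ribosome synthesis. TCOF1 was at 13.6 RPKM in THG-1 S264A, 27.4 RPKM in THG-1 WT and 19.9 RPKM with empty vector, the order of the U3 copies, with a ratio of 0.497 (0.471 to 0.524) for THG-1 S264A against THG-1 WT that the pseudocount kept just short of the 2-fold rule. NOLC1 was at 41.0 RPKM in THG-1 S264A, 77.0 RPKM in THG-1 WT and 39.7 RPKM with empty vector.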

How the data were processed

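RNA sequencing of 3 cell lines, 1 library each, gave the values. Per the file headers, the deposited table holds RPKM computed by the authors for each library, and a second set of columns that the values show to be RPKM quantile-normalised across libraries. The build was hg19, per the submitters' processing notes. The sources used here do not give aligner, counting program, annotation or strandedness. Whole reads, lengths and depths were recovered from the steps of the RPKM values within 0.001 reads. A length that fitted was found for 25987 of the 25998 rows above 0 (99.958%). The recovery was tested on simulated data only with the length of each row given. For rows without an annotated length, among them all numbered rows, the smallest length that fitted was taken. Their reads and lengths are therefore minimum values, a setting that the simulation did not cover. Rows at 1 RPKM or more in at least 1 of the 2 libraries were compared by log2((RPKM a + 1)/(RPKM b + 1)), a scale that understates the change of low genes, with 2-fold as the limit. Single ratios are plain RPKM ratios with exact Clopper-Pearson 95% intervals from the reads. Positions and sequences come from GENCODE release 29 (GRCh38), used by symbol only, since the table has no coordinates. The text names the 6 highest rows of each class, members with the largest folds at 20 reads or more, fixed lists, and rows nearest the limit. Members and lists were chosen with earlier results of these data known. Analysis used Python 3.11.15 with numpy 2.4.6, pandas 2.3.3, scipy 1.17.1 and matplotlib 3.10.9.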

Additional observations from a re-analysis of the deposited data

How the results depend on the processing

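Alternatives were another pseudocount (0.1 or 5), another filter, the authors' quantile-normalised columns, upper-quartile scaling, scaling to the same sum, read minimums and left-out rows. In THG-1 WT against empty vector the counts of 1 higher and 1 lower member each became 0 with a filter at 5 RPKM, a pseudocount of 5, at least 20 reads, intervals beyond 2-fold, and symbols in more than 1 row left out. In THG-1 S264A against THG-1 WT the 1 lower member became 0 under the same 5 settings and 2 with a pseudocount of 0.1, which added SNORD3B-2, and 1 member, SNORA40_2, was called higher with libraries scaled to the same sum. The C/D ratio of THG-1 WT to empty vector was 1.11 quantile-normalised, 1.05 with upper-quartile scaling, 1.13 with the same sum and 1.56 without SNORD3B-1. For THG-1 S264A against empty vector it was 0.803, 0.646, 0.722 and 0.798, and for THG-1 S264A against THG-1 WT 0.722, 0.613, 0.638 and 0.510, under these settings. With upper-quartile scaling the H/ACA ratio to empty vector was 1.15 for THG-1 WT and 1.15 for THG-1 S264A. The H/ACA ratio of THG-1 S264A to empty vector turned to 0.992 as a share of reads, since that measure gives the long row SNORA67_8 most weight. With symbols in more than 1 row left out no H/ACA row was above 0, so that no ratio could be given. Leaving out H/ACA rows of 300 bases or more, chosen after seeing the data, gave 1.43 for THG-1 WT and 1.38 for THG-1 S264A against empty vector. The cause of these shifts was not tested otherwise. No paired analysis was possible because each line had 1 library. Depth limits all rows but the 3 highest U3 copies and SNORA67_8, since no other snoRNA row held over 55 reads in a library.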

Other observations

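Rows with older snoRNA names lay outside the symbols examined. Of 82 rows named U3 with a copy number, 8 were above 0 and 3 reached 1 RPKM, with a highest level of 1.76 RPKM. Together they held 15 reads in THG-1 S264A, 10 in THG-1 WT and 23 with empty vector. All 26 rows named U8 were at 0, as was SNORD118, the gene of that RNA. Of 465 rows named snoU13, 19 were above 0 and 2 reached 1 RPKM, with a highest level of 1.4998 RPKM and 8 reads in THG-1 S264A, 9 in THG-1 WT and 23 with empty vector.

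Of 54 Cajal body RNA rows 4 were above 0. Besides SCARNA2, SCARNA20_5 reached 1 RPKM, at 0.544 RPKM in THG-1 S264A, 0 RPKM in THG-1 WT and 1.43 RPKM with empty vector, from 1, 0 and 6 reads. SNORA40_17, below the limit, had 7 reads in THG-1 S264A, 10 in THG-1 WT and 11 with empty vector over a recovered length of 2275 bases, the only H/ACA row besides SNORA67_8 with a length beyond 300 bases among those above 0. RN7SL1 was listed at 0 in every library, whereas RN7SL2, which encodes nearly the same signal recognition particle RNA, was at 23963 RPKM in THG-1 S264A, 29455 RPKM in THG-1 WT and 22676 RPKM with empty vector.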
